A study of Homo sapiens with 9 samples.

Results

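The earliest response of A375P cells to blocking the ERK pathway was read from 3 of the 9 deposited columns: PD184352 at 2 h, PLX4720 at 2 h and DMSO at 2 h. A375P is an established human melanoma line that carries a mutant RAF kinase, grown in serum-containing medium. PD184352 is an inhibitor of the MEK kinases and was given at 1 µM, PLX4720 is an inhibitor of the mutant RAF kinase and was given at 0.4 µM, and DMSO is the solvent of both and served as the control. All 3 groups share the line and the 2 h time, and each holds 1 column of a gene-level exon array, on which a row is a transcript cluster. The design text mentions triplicates, but nothing read here says whether a column averages them. No value below therefore has a replicate error, and no difference was tested. The other 6 columns are the same treatments at 6 and 24 h, of which the DMSO columns were used to see whether the DMSO 2 h reading of a gene was unusually high or low.

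RAF phosphorylates and activates MEK, and MEK phosphorylates and activates ERK, which enters the nucleus and switches on transcription factors. Among the first genes that ERK induces are the immediate-early transcription factors and a set of inhibitors that damp the pathway itself, namely the Sprouty and SPRED proteins, which act upstream near RAS and RAF, and dual-specificity phosphatases, which remove the activating phosphates from ERK. Many of these transcripts are short-lived, and their levels are widely used as a readout of ERK activity in melanoma cells with a mutant RAF kinase.

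Of the 35446 rows, 19380 had 1 gene symbol and stood for 17047 genes, and 12785 of these remained after the dimmest 25% were left out. Changes are differences on the log2(intensity + 1) scale, on which dim genes appear to change less than they did, and a gene was counted as changed at 1.5-fold or more (0.585 on the log2 scale). This is a rule of size and not a test. By the mean of both inhibitor columns minus DMSO, 31 genes (0.242% of those compared) were lower and 6 (0.0469%) were higher at 2 h. The same rule gave 190 lower (1.49%) and 38 higher genes (0.297%) at 6 h, and 1003 lower (7.85%) and 506 higher genes (3.96%) at 24 h, each against DMSO of the same time. PD184352 alone was past the fold in 39 lower (0.305%) and 11 higher genes (0.0860%), and PLX4720 alone in 30 lower (0.235%) and 8 higher genes (0.0626%). Both compounds are set against the same DMSO 2 h column, so an error in that column enters both comparisons alike, and their values are given side by side.

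The 31 lower genes were led by 4 (0.0313% of those compared) that were past 2-fold with each compound: DUSP6, SPRY2, SPRY4 and IER3. DUSP6, the phosphatase that acts most selectively on ERK (transcript cluster 3464860), read 193.2 intensity units with PD184352 and 210.3 with PLX4720, against 1492 with DMSO, and was 7.37-fold lower in the mean. SPRY2, a Sprouty inhibitor of receptor signalling to ERK (transcript cluster 3519309), read 211.2 with PD184352 and 226.6 with PLX4720, against 1193 with DMSO, and was 5.43-fold lower. For these genes both inhibitor columns were lower than every DMSO column of the series, as in 18.2% of all genes compared. The compounds stood close to each other. SPRY4, the other strongly lower Sprouty gene (transcript cluster 2879105), read 337.5 with PD184352 and 332.8 with PLX4720, against 1290 with DMSO, and was 3.84-fold lower. IER3, an early stress-response gene that ERK induces (transcript cluster 2948630), read 717.2 with PD184352 and 688.3 with PLX4720, against 2103 with DMSO, and was 2.99-fold lower. The DMSO readings of SPRY4 were 1869 at 6 h and 1910 at 24 h, both above its DMSO 2 h reading, and those of IER3 were 2312 and 2040.

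**Figure D1:**
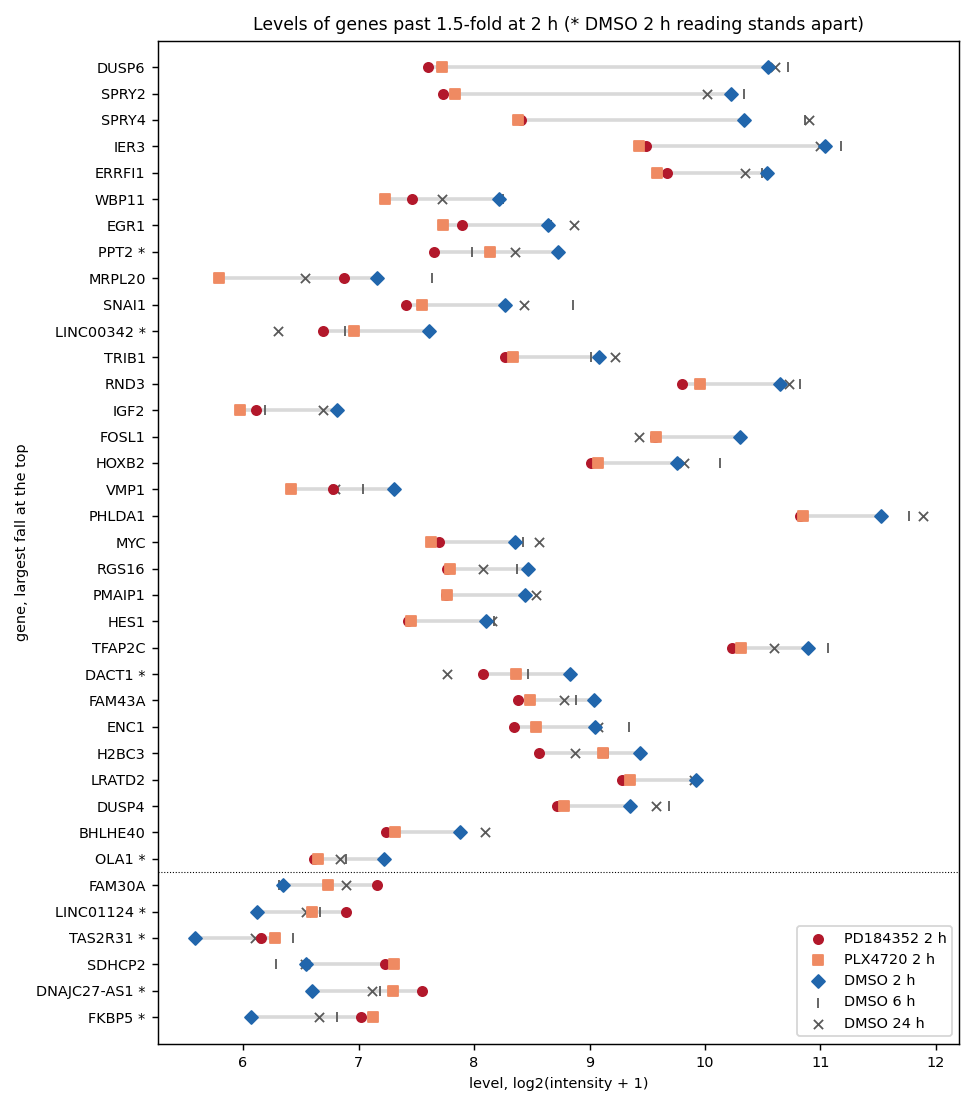
Levels on the log2(intensity + 1) scale (x axis) of the genes past 1.5-fold in the mean of both inhibitors at 2 h (y axis), 31 lower above the dotted line and 6 higher below it, with 1 column per symbol. Circles and squares are PD184352 and PLX4720 at 2 h, diamonds are DMSO at 2 h, a bar and a cross are DMSO at 6 and 24 h, and an asterisk marks the 8 genes whose DMSO 2 h reading stood apart. For DUSP6, SPRY2, SPRY4 and IER3 the gap between the inhibitor and DMSO columns is wider than the spread of the DMSO columns, while for several genes further down it is not.

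Promoter bases were at hand for 18 of the 31 lower genes. Of these 18, 2 had a CArG box, the site bound by serum response factor, in the 250 bases before a transcription start. These sequences are shown because serum response factor and its ETS partners are a known link from ERK to immediate-early genes, and EGR1 is the textbook case. The bases come from RefSeq on GRCh38.p14, 5′ to 3′ on the gene's strand, and end at the base before the start, with motif matches in capitals. EGR1 lies at chr5:138465229-138465478 on the + strand, and RND3 at chr2:150487696-150487945 on the − strand, where it is 1 of 2 annotated windows. The window of SPRY2, at chr13:80341127-80341376 on the − strand and 1 of 3, is shown beside them with a match to CCGGAA, the core of many ETS sites.
EGR1: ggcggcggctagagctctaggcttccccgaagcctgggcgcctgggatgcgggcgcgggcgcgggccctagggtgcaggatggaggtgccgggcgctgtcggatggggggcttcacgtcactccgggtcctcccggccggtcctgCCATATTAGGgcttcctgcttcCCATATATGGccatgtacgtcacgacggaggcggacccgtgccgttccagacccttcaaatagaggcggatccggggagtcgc
RND3: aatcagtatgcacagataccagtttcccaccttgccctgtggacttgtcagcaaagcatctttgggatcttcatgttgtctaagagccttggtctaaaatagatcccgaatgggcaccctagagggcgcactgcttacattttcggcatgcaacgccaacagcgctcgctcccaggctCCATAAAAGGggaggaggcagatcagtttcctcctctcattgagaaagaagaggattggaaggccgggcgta
SPRY2: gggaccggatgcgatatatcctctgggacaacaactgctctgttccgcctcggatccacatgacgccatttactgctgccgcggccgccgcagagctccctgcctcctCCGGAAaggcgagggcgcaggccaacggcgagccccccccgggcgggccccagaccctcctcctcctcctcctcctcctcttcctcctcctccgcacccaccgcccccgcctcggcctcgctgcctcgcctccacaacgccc

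The 2 CArG boxes of EGR1 began 105 and 83 bases before the start, and that of RND3 began 72 bases before it. The table of windows held 18 of the 31 lower genes, in 24 windows, and the CArG box was in 3 of these 24, those of EGR1 and both of RND3. It was in 1.16% of all 35116 windows. The motif CCGGAA, read on both strands, was in 4 of the 24 windows (MRPL20, PHLDA1, SPRY2 and VMP1) and in 14.5% of all windows. The AP-1 motif TGANTCA was in 1 of the 24 (PPT2) and in 6.57% of all windows, and the CRE motif TGACGTCA in 0 of the 24 and in 1.65% of all. A match is a description of these letters and not a site shown to be bound.

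Beyond the leading Sprouty and DUSP genes, the list of ERK feedback inhibitors was lower in part. The list takes in DUSP genes whatever MAP kinase they act on, so its unmoved members are not all inhibitors of ERK. Of its 17 genes 16 were compared, 4 were past 1.5-fold lower (DUSP6, SPRY2, SPRY4 and DUSP4), and 0 were past it higher, against 0.242% lower and 0.0469% higher over all genes. The median of the 16 was −0.30 (log2), against −0.02 over all 12785 genes. DUSP4, a nuclear phosphatase of ERK, read 421.3 with PD184352 and 438.2 with PLX4720, against 652.9 with DMSO. SPRED2, a membrane-bound inhibitor of RAS to RAF signalling, gave −0.54 with PD184352, −0.38 with PLX4720 and a value short of the fold in the mean. DUSP1, a phosphatase of several MAP kinases, was at −0.44 with PD184352 and −0.37 with PLX4720. SPRY1 was at −0.33 in the mean, and the phosphatases DUSP7 and DUSP5 were each at −0.30. The remaining 7 stood within 0.11 of zero in the mean: SPRED3 (−0.11), DUSP2 (−0.08), DUSP10 (−0.02), SPRED1 (−0.01), DUSP9 (−0.00), DUSP8 (0.04) and DUSP16 (0.10). The row named DUSP8 is of uncertain identity, as given below. SPRED1, which read 1221 with PD184352 and 1238 with PLX4720, against 1236 with DMSO, was thus level at a time when SPRY2 and SPRY4 were several-fold lower.

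Of the immediate-early genes, 39 of 45 were compared, 7 were past 1.5-fold lower and 0 higher, with a median of −0.28. Over all genes 0.242% were lower and 0.0469% higher, with a median of −0.02. After IER3 came EGR1, a zinc finger transcription factor, which read 237.1 with PD184352 and 211.4 with PLX4720, against 398.5 with DMSO. SNAI1, a repressor of E-cadherin, read 169.2 with PD184352 and 186.6 with PLX4720, against 307.7 with DMSO. TRIB1, a pseudokinase that directs protein degradation, read 307.7 with PD184352 and 323.1 with PLX4720, against 542.1 with DMSO. For all 3 both inhibitor columns lay below the 3 DMSO columns, which differ in time, as in 18.2% of all genes compared.

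FOSL1, the AP-1 subunit FRA1, read 755.8 with PD184352 and 763.0 with PLX4720, against 1264 with DMSO at 2 h. Its DMSO reading was again 1264 at 6 h but 686.9 at 24 h, below both inhibitor columns. PHLDA1, a pleckstrin homology-like protein, read 1815 with PD184352 and 1846 with PLX4720, against 2953 with DMSO, and the transcription factor gene MYC read 206.1 with PD184352 and 197.2 with PLX4720, against 325.6 with DMSO. The next genes of the list stood just short of the fold in the mean: ZFP36L1 at −0.57 and ZFP36L2 at −0.53, which encode proteins that bring about decay of AU-rich mRNAs, and CCN2, a secreted matricellular protein, at −0.53.

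Other members of the list were lower by less than the fold. FOS gave −0.39 with PD184352 and −0.35 with PLX4720, JUNB at −0.53 and −0.33, IER2 at −0.47 and −0.41, EGR3 at −0.34 and −0.36, and NR4A1 at −0.34 and −0.20, PD184352 first. FOSB, at −0.08 in the mean, and JUND, at −0.08, lay close to the median of all genes. JUN was at −0.27 with PD184352 and −0.07 with PLX4720. A few members read higher with both compounds, led by ATF3, a stress-induced factor, at 0.20 with PD184352 and 0.36 with PLX4720, followed by ARC at 0.11 and 0.15 and SNAI2 at 0.08 and 0.15. In all, 32 of the 39 genes were lower in both inhibitor columns, against 5053 of the 12785 genes compared.

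The ERBB list holds receptors for the epidermal growth factor family, their ligands and the receptor inhibitor ERRFI1. Of its 14 genes 9 were compared and 1 was past the fold lower, ERRFI1, against 0.242% lower over all genes. ERRFI1 read 812.6 with PD184352 and 767.7 with PLX4720, against 1487 with DMSO. The ligand genes TGFA, at −0.45 with PD184352 and −0.40 with PLX4720, and HBEGF, at −0.28 with each, came next. The inhibitor LRIG1 was at −0.24 in the mean, the receptors ERBB3 at −0.20 and ERBB2 at −0.12, and EGF, NRG1 and ERBB4 at −0.01, −0.01 and 0.03. EGFR, EREG, BTC and EPGN were among the dim genes left out.

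Among lists of other transcription factors, 1 of 21 HOX genes, 1 of 4 AP-2 factors and 0 of 11 ETS factors were past the fold lower. The share over all genes was 0.242%, and with lists this small a count of 1 or 0 is given as a description only. HOXB2, a homeobox factor, read 517.0 with PD184352 and 537.9 with PLX4720, against 864.8 with DMSO, and was the only one of 21 HOX genes compared that was past the fold. The median of those 21 was −0.02, that of all genes. TFAP2C, an AP-2 factor, read 1201 with PD184352 and 1268 with PLX4720, against 1900 with DMSO, while its relatives TFAP2B, TFAP2E and TFAP2A were at −0.29, −0.03 and 0.15 in the mean. HES1, a repressor known as a Notch target, gave −0.68 with PD184352 and −0.65 with PLX4720, and BHLHE40, a related repressor, at −0.64 and −0.56. The ETS factor list had 0 of 11 genes past the fold, led by ETV5 (−0.50), ELK3 (−0.45), ETV4 (−0.35) and ETV1 (−0.29) in the mean. At 2 h the ETS genes ETV4 and ETV5 were thus short of 1.5-fold.

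The other lower genes were of mixed function. RND3 read 889.8 with PD184352 and 995.8 with PLX4720, against 1604 with DMSO. RGS16, which shortens signalling by G proteins, gave −0.69 with PD184352 and −0.68 with PLX4720 and was the only one of 11 RGS genes compared past the fold. PMAIP1, which encodes the cell death protein NOXA, was at −0.69 with PD184352 and −0.68 with PLX4720. It was the only gene past the fold in the p53 target list (15 compared, median −0.05) and in the BCL2 family list (14 compared, median −0.03). Beside these counts and that of the RGS genes, 0.242% of all genes were past the fold lower. In the BCL2 family BMF, another death-promoting member, was the highest, at 0.33 with PD184352 and 0.37 with PLX4720. FAM43A (−0.61), ENC1 (−0.61) and LRATD2 (−0.60) complete this set and were named, like HES1, BHLHE40, DACT1, H2BC3 and OLA1, after their values were seen.

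A separate group of lower genes rested on readings that were unsteady in DMSO cells or on a row of uncertain identity. A DMSO 2 h reading was taken to stand apart where it lay beyond both later DMSO readings, on the side that enlarges the change, by at least 0.3 on the log2 scale or by 50% of the change. This held for 4 of the 31 lower genes: PPT2, LINC00342, DACT1 and OLA1. It held for 30.3% of all genes compared, but that share is not a like background. Where a gene barely changed, 50% of its change is a very small gap. PPT2, a thioesterase of the lysosome, read 200.5 with PD184352 and 281.1 with PLX4720, against 422.6 with DMSO at 2 h, but DMSO cells read 252.5 at 6 h and 326.2 at 24 h. The noncoding LINC00342 read 102.2 with PD184352 and 123.6 with PLX4720, against 194.9 with DMSO at 2 h, 117.3 at 6 h and 77.95 at 24 h. In 25 of the 31 lower genes both inhibitor columns lay below all 3 DMSO columns, as they did in 18.2% of all genes compared. The rule for the 31 already asks for a mean below DMSO 2 h, so the 2 shares are not alike. The 6 exceptions were DACT1, FOSL1, H2BC3, LINC00342, MRPL20 and PPT2.

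Transcript clusters numbered next to each other were mostly genes of 1 chromosome, so the neighbours of a row bear on where it lies. For 183 of the genes compared (1.43%) the commonest chromosome among the 10 neighbours on each side was not that of the named gene, and 2 of the 31 lower genes, WBP11 and OLA1, were among them. WBP11, named for a splicing-related protein, read 175.5 with PD184352 and 149.1 with PLX4720, against 296.4 with DMSO. Whether its row reads a related sequence elsewhere was not tested, and the name is uncertain. For OLA1 the other row, which was dimmer, was at 0.10, against −0.59 for the row used, and for IGF2 the 2 other rows were at 0.12 and 0.10, against −0.77. H2BC3 belongs to the histone genes, whose near-identical copies can share signal, and was at −0.88 with PD184352 and −0.33 with PLX4720. VMP1 was at −0.53 with PD184352 and −0.89 with PLX4720. Genes that passed no fold were not looked up singly, so list members may be among the 183. The row used for DUSP8 (transcript cluster 3251834) is numbered between those of SVIL (3241096) and SDHCP2 (3258050), both on chromosome 10. Whether it reads DUSP8 itself was not tested, and that name is uncertain too.

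The 6 higher genes were all in the lower part of the level range, and for 4 of them the DMSO 2 h reading was low. FKBP5, a cochaperone of steroid receptors, read 128.5 with PD184352 and 138.6 with PLX4720, against 66.24 with DMSO at 2 h, and DMSO cells read 111.4 at 6 h and 99.91 at 24 h. Both inhibitor columns were above all 3 DMSO columns for FKBP5, but most of the gap to DMSO 2 h was also seen between DMSO columns. DNAJC27-AS1, an antisense transcript, read 186.3 with PD184352 and 156.0 with PLX4720, against 95.97 with DMSO at 2 h, 144.5 at 6 h and 137.6 at 24 h. Its other row was at −0.02, and whether signal of the opposite strand enters it was not tested. TAS2R31, a bitter taste receptor with close paralogs, and the noncoding LINC01124 had low DMSO 2 h readings too. SDHCP2, a pseudogene of a succinate dehydrogenase subunit, read 148.8 with PD184352 and 157.8 with PLX4720, against 92.26 with DMSO at 2 h, 76.96 at 6 h and 91.63 at 24 h. It was the 1 higher gene that lay above all 3 DMSO columns with a DMSO 2 h reading that did not stand apart. The noncoding FAM30A gave 0.81 with PD184352 and 0.39 with PLX4720, and its other row was at 0.05.

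FKBP5 is a standard glucocorticoid-induced gene, and the other genes of that list lay on both sides of zero. Of 16 genes 14 were compared, 1 was past the fold higher (FKBP5) and 1 lower (ERRFI1), and the median was −0.04. Over all genes 0.0469% were higher and 0.242% lower. TSC22D3 and PER1, 2 further genes of the list that were named after their values were seen, were at 0.09 and −0.07 in the mean. DUSP1 and SGK1, also on the list, were at −0.41 and −0.19.

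**Figure D2:**
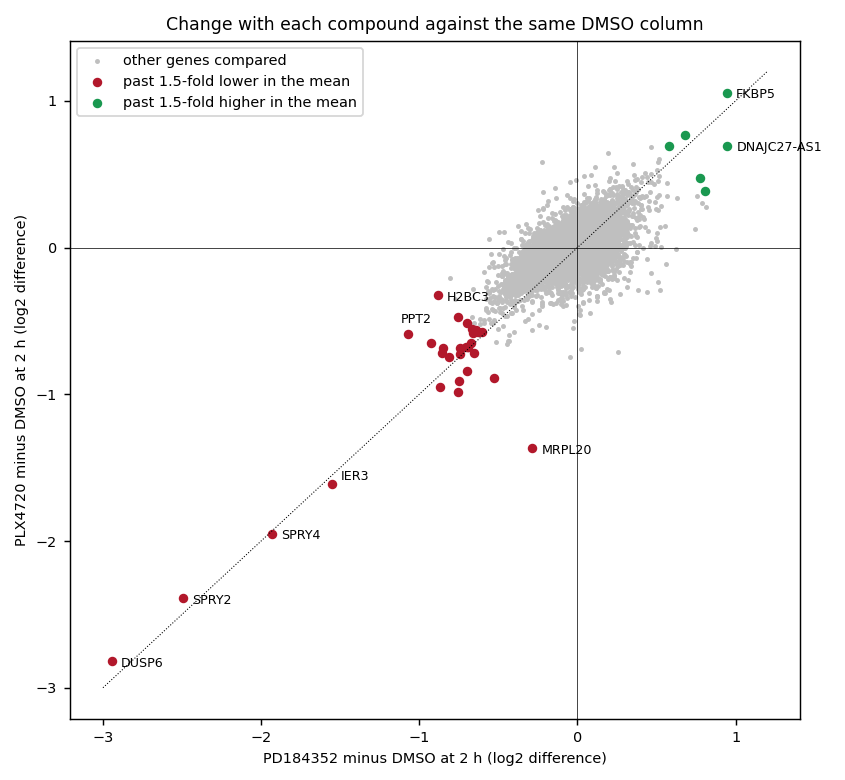
Log2 difference from DMSO at 2 h with PD184352 (x axis) and with PLX4720 (y axis), 1 point per gene compared, with genes past 1.5-fold in the mean in red (lower) and green (higher). Both axes use the same DMSO column, so a spread along the dotted line of equality is not evidence by itself. DUSP6, SPRY2, SPRY4 and IER3 lie far beyond the cloud and close to that line, while MRPL20 lies far from it.

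The size of the changes has to be read against the differences between DMSO columns. DMSO at 6 h differed from DMSO at 2 h by 1.5-fold or more in 77 genes (0.602%), 16 lower (0.125%) and 61 higher (0.477%), and DMSO at 24 h differed from DMSO at 2 h in 156 (1.22%), 39 lower (0.305%) and 117 higher (0.915%). Between DMSO at 24 h and DMSO at 6 h, 46 genes were lower (0.360%) and 22 higher (0.172%), so a surplus of lower genes also occurred between DMSO columns. Each of these 3 comparisons had more genes past the fold than the 50 genes (0.391%) of PD184352 and the 38 (0.297%) of PLX4720, so a count of genes past 1.5-fold at 2 h is no larger than that between DMSO columns, in which time and column cannot be told apart. DUSP6 was the lowest gene with both compounds, at −2.94 with PD184352 and −2.82 with PLX4720, whereas the lowest of all genes was at −0.83 in DMSO 6 h minus DMSO 2 h and at −1.36 (CCN1) in DMSO 24 h minus DMSO 2 h. DUSP6, SPRY2, SPRY4 and IER3 were below both of these values with each compound, and ERRFI1 was below the first only. Among the 6392 genes with the higher mean levels, 21 were past the fold lower and 0 higher in the mean of both inhibitors. In the same genes 4 were lower and 19 higher in DMSO 6 h minus DMSO 2 h, 25 lower and 61 higher in DMSO 24 h minus DMSO 2 h, and 25 lower and 11 higher in DMSO 24 h minus DMSO 6 h.

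**Figure D3:**
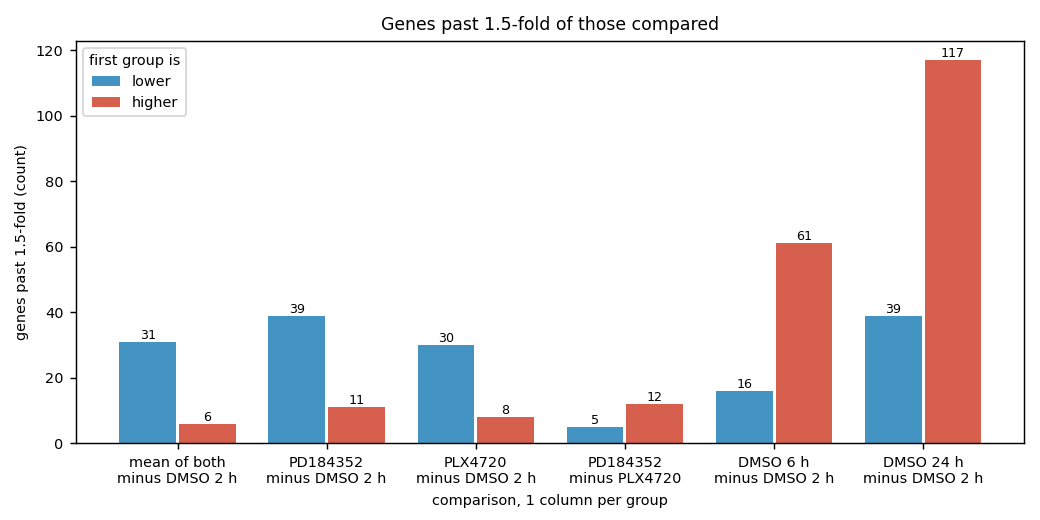
Genes past 1.5-fold (y axis, count out of 12785) in each comparison (x axis), each bar resting on 1 column per group, with the mean of both inhibitor columns at the left. Blue bars count genes lower and red bars genes higher in the group named first. The inhibitor comparisons hold mostly lower genes (31 against 6 in the mean), and the comparisons of later DMSO columns with DMSO 2 h mostly higher ones (61 and 117).

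Levels shifted slightly with intensity, more so with PD184352. Of 4 equal groups of genes by level, in the highest the median difference from DMSO was −0.135 with PD184352 and −0.033 with PLX4720, and in the lowest it was 0.038 and 0.026. Column medians lay between 98.96 and 102.4, and the 99th percentile of intensity was 1552 with PD184352 and 1645 with PLX4720, against 1701 with DMSO. The shift matters for genes near the fold: with each difference taken relative to the median of its level group, an alternative chosen after the data were seen, 26 genes were lower. Of the 31 lower genes 24 were among them, without DACT1, DUSP4, ENC1, FAM43A, H2BC3, LRATD2 and TFAP2C.

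Lists of cell cycle, ribosome, metabolic, stress and other genes had medians close to that of all genes at 2 h. Over all genes only 0.242% were past the fold lower and 0.0469% higher, so a count of 0 in lists this small says little. In DNA replication 0 of 23 genes compared were past the fold (median −0.03, range −0.19 to 0.09), and in mitosis 0 of 19 (median −0.08, range −0.32 to 0.08), with the mitotic kinase PLK1 lowest at −0.32. Of the G1 cyclins, their kinases and inhibitors 0 of 11 were past it, with cyclin D1 (CCND1) at −0.30 with PD184352 and −0.18 with PLX4720 and CDC25A at −0.18 in the mean. Ribosome biogenesis had 0 of 15, cytosolic ribosomal proteins 0 of 15, cholesterol synthesis 0 of 9 and heat shock genes 0 of 10, with medians between −0.03 and 0.01. Amino acid and cystine genes of the ATF4 type had 0 of 16 and a median of −0.07, led by CHAC1 at −0.38 and SESN2 at −0.27. In the FOXO target list 1 of 16 was past the fold (TRIB1, lower), the median was 0.01, and CITED2 was highest at 0.26. In the list of cytokines and VEGFA 0 of the 6 compared were past it, with VEGFA, the angiogenic factor, at −0.45. A further 7 members were left out as dim and were not counted. Among these CXCL8 read 6.17 with PD184352 and 6.17 with PLX4720, against 6.79 with DMSO at 2 h, on the log2 scale. CXCL8 was thus lower by more than the fold with each compound, so the count of 0 does not cover every cytokine on the list. The 11 housekeeping genes compared had a median of −0.06 and ran from −0.21 (ACTB and GAPDH) to 0.18 (B2M).

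**Figure D4:**
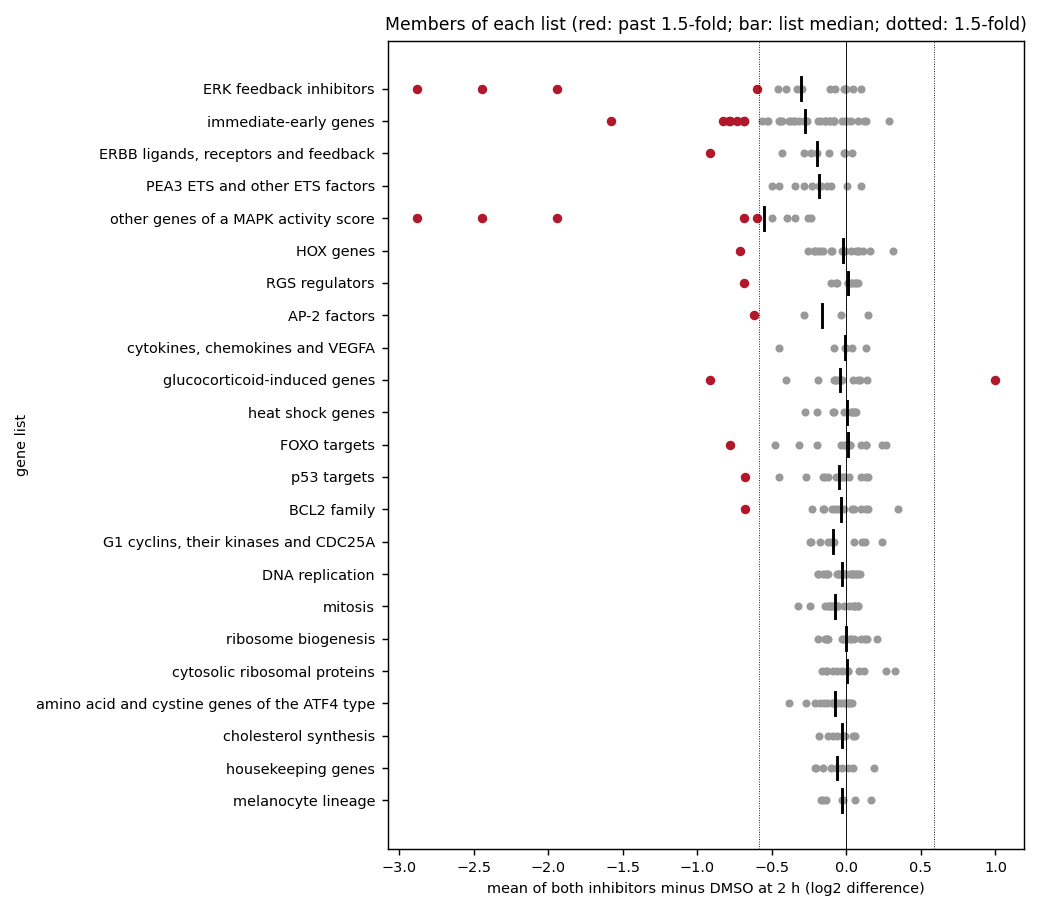
Mean of both inhibitor columns minus DMSO at 2 h (x axis, log2 difference) for the compared members of each gene list (y axis), with members past 1.5-fold in red, the list median as a bar and the 1.5-fold limits dotted. The lists of ERK feedback, immediate-early and MAPK activity genes, which share members, reach furthest to the left, with medians of −0.30, −0.28 and −0.55. The lists of replication, mitosis and ribosome genes stay between the dotted lines.

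A short list used elsewhere to score MAPK activity, of which DUSP4, DUSP6, SPRY2 and SPRY4 are feedback genes as well, had all 10 members compared, 5 past the fold lower and a median of −0.55, against 0.242% lower and a median of −0.02 over all genes. All 10 were lower in both inhibitor columns, as were 5053 of the 12785 genes compared. The fifth gene past the fold was PHLDA1, which is also on the immediate-early list. The list thus added no gene past the fold to those already counted above.

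The label of the cells was checked against melanocyte markers. SOX10, the lineage factor, read 840.9 with PD184352, 924.1 with PLX4720 and 989.5 with DMSO, and MITF, the master regulator of pigment cells, read 638.4, 720.1 and 687.7 in the same order. The pigment gene PMEL read 2047, 2321 and 2222, MLANA only 103.1, 114.1 and 96.50, and TYRP1 was among the dim genes left out. Of the 7 melanocyte genes compared 0 were past the fold, with a median of −0.03, against 0.242% lower and 0.0469% higher over all genes. Of 16 markers of keratinocytes, fibroblasts, endothelium and blood, 9 were compared and 0 were past the fold, while KRT1, DCN, PECAM1, PTPRC, CD3E and HBB were dim. With DMSO at 2 h the 9 read 203.8 (KRT10), 201 (KRT14), 177.2 (COL1A1), 135.6 (CD14), 131.3 (KDR), 125.3 (PDGFRB), 91.13 (COL3A1), 88.36 (CDH5) and 61.45 (LUM). All were below SOX10, MITF and PMEL, but several were above MLANA. These levels therefore do not settle the cell type, and a change against DMSO does not bear on it.

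The compounds were also set against each other directly, which leaves the DMSO column out, although their doses differ. PD184352 was lower than PLX4720 by 1.5-fold or more in 5 genes (0.0391%) and higher in 12 (0.0939%), and the standard deviation of the difference over genes was 0.131. Of the 31 lower genes only MRPL20 was past 1.5-fold between the compounds, and the 31 had a median difference, PD184352 minus PLX4720, of −0.057, against −0.066 over all genes. PD184352 was the lower column in 71.0% of the 31 and in 70.1% of all genes compared. For DUSP6 the difference was −0.12, for SPRY2 −0.10, for SPRY4 0.02 and for IER3 0.06. The next furthest apart after MRPL20 (1.09) were H2BC3 (−0.56), PPT2 (−0.49) and VMP1 (0.36).

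MRPL20, a mitochondrial ribosomal protein gene, was the furthest apart of all genes, and read 116.6 with PD184352 and 54.41 with PLX4720, with 142.1 in DMSO at 2 h. DMSO cells also differed in MRPL20, with 197.9 at 6 h and 91.78 at 24 h, the furthest that any gene of DMSO 24 h lay below DMSO 6 h. The other genes higher with PD184352 included the noncoding LINC00869 (0.97) and LINC01743 (0.74), MCEE, an enzyme of propionate breakdown (0.81), and RPL14, a ribosomal protein gene (0.74). HSF1, the heat shock factor, read 2103 with PD184352 and 1352 with PLX4720, with 1525 in DMSO, and was named after its value was seen. Lower with PD184352 were VWF (−0.81), MIF4GD-DT (−0.62), NBEA (−0.60), IL17RA (−0.60) and OR56A3 (−0.60). For VWF, NBEA, RPL14 and HSF1, 4 of the 17, the commonest chromosome among the neighbours in the numbering was another, so these names are uncertain. None of the ERK feedback or immediate-early genes compared was among the 17. With 0.0391% of all genes lower and 0.0939% higher, this says little for lists of such size.

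**Figure D5:**
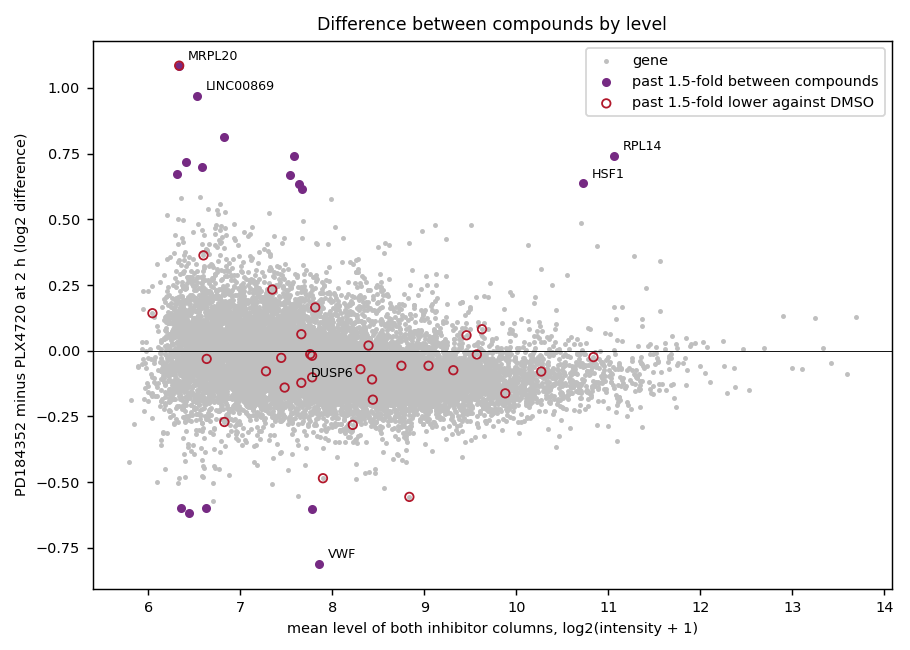
PD184352 minus PLX4720 at 2 h (y axis, log2 difference) by the mean level of both columns (x axis, log2 of intensity + 1), 1 point per gene compared, with the 17 genes past 1.5-fold between the compounds in purple and the 31 lower genes ringed in red. Most ringed genes, DUSP6 among them, lie within the cloud, the purple points are mostly at low levels, and the cloud as a whole lies slightly below zero at higher levels.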

How the data were processed

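Intensities on a linear scale were used as the authors deposited them, in 9 columns with 1 sample per treatment and time. Without assigning a role, the submitters' processing notes list R 2.8.0, RMA and limma. The array's genome build is unstated. For arrays their number limits the precision. From the deposited values log2(value + 1) was computed in Python 3.11.15 with pandas 2.3.3, with no further normalization. Names come from the platform table, and 19325 of 19380 identifiers matched RefSeq genes of GRCh38.p14, with 0 names changed. For the 1794 genes with several rows the row with the highest mean was used, and 4262 dim genes were left out. No 2 columns were identical (0 pairs). With 1 column per group no test was possible.

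Named were the 20 largest falls and 10 largest rises past 1.5-fold with 1 sign for both compounds, the 5 largest differences each way between compounds, all feedback, immediate-early and ERBB genes and cell markers, and up to 4 genes of each other list. Members and lists were chosen with earlier results of these data known. Alternatives were a 2-fold limit, other dim filters, a pseudocount of 16, quantile normalization, means over rows and leaving out genes whose DMSO 2 h reading stood apart.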

Additional observations from a re-analysis of the deposited data

How the results depend on the processing

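No paired analysis was possible because each group holds 1 column. The lower counts in the mean of both inhibitors, with PD184352 and with PLX4720 (31, 39 and 30) stayed within 1.5 times under each alternative other than a 2-fold limit, which left 4, 5 and 5, and no filter on dim genes, which gave 52, 64 and 58. The higher counts (6, 11 and 8) were less steady: 0, 0 and 1 at 2-fold, 37, 58 and 57 with no filter, 0, 3 and 1 with the dimmest 50% left out, and 2, 4 and 3 without genes whose DMSO 2 h reading stood apart. With a pseudocount of 16 the higher count was 3 in the mean and 4 with PLX4720, and with differences centred by level group, chosen after seeing the data, it was 17 with PD184352. Between compounds, 5 lower and 12 higher with PD184352 became 0 and 1 at 2-fold, 34 and 47 with no filter, and 2 and 5 with the dimmest 50% left out. The 5 became 1 with a pseudocount of 16 and 3 with means over rows. The 8 genes with a DMSO 2 h reading that stood apart became 0 at 2-fold, 33 with no filter, 2 with the dimmest 50% left out and 5 with a pseudocount of 16, all chosen after seeing the data. Quantile normalization gave 26 lower genes, of which 24 were among the 31. Of the 37 genes past the fold in the mean of both inhibitors, none changed sign in that mean under a pseudocount of 16, quantile normalization, centring by level or means over rows, except that IGF2 has no value with means over rows, where it was among the dim genes left out. HSF1, past the fold between compounds only, had a mean of −0.07 with means over rows, against 0.14 as reported. The cause of these movements was not tested, beyond the number of genes compared or the limit used. The single column per group and the dim genes' low readings limit precision.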

Other observations

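Rows that name several genes or none were also read at 2 h, with the same limit on dim rows. Of 2294 rows with several symbols 3 were past 1.5-fold lower (0.131%) and 5 higher (0.218%) in the mean of both inhibitors. Of 5061 rows that the platform table does not list, 43 were lower (0.85%) and 26 higher (0.514%), and the DMSO 2 h reading stood apart in 36 of these. They ran from −1.29 to 1.02 on the log2 scale. The 22 microRNA genes compared held 0 past the fold either way, with a median of 0.03, against 0.242% lower and 0.0469% higher over all genes.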
